A study of Mus musculus with 6 samples.

Results

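The genes Msln, Muc16, Upk1b, Upk3b, Scel, Lrrn4 and Epcam, which encode proteins of mesothelium and of simple or stratified epithelia, were followed in whole mouse testes. They were taken by symbol from the authors' table of 14998 genes, where all 7 have a row. The genes were proposed with the difference between knockout and control libraries already in view, so that difference is given for them as a description and without a test. RNA of whole testes was sequenced in 3 libraries labelled knockout and 3 labelled control. Knockout males carried loxP-flanked alleles of Lats1 and Lats2 on both chromosomes together with Amh-cre, and control males carried the same flanked alleles without Cre. The Amh promoter drives Cre in Sertoli cells, the somatic cells that line the testis cords. By design the other testis cells keep both kinases, but where Cre acted was not measured here. LATS1 and LATS2 are the Hippo kinases that hold back the coactivators YAP and TAZ. The study set out to remove both kinases from Sertoli cells to see which testis genes respond. The age of the males is not given in the labels.

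The mesothelium of the testis is the flat epithelium that covers the organ, a derivative of the coelomic epithelium from which Sertoli cell precursors also arise. Mesothelial cells carry mesothelin, a lipid-anchored surface protein, and mucin 16, a large transmembrane mucin that binds it. They also express uroplakins, which are best known from the plaques of the bladder lining, and the leucine-rich repeat protein LRRN4. EPCAM is a homotypic adhesion protein of simple epithelia that undifferentiated spermatogonia of mice carry as well. Sciellin is a precursor protein of the cornified envelope of stratified epithelia.

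Values are the authors' FPKM, fragments scaled to the length of the gene model and the size of the library, which can be compared between genes. Library totals, worked out from what 1 read adds to a low value, ran from 11045693 to 12322844 reads in knockout libraries and from 9490735 to 13620087 reads in control libraries. Spearman correlations across genes were 0.994 to 0.996 among knockout libraries, 0.988 to 0.994 among controls and 0.866 to 0.889 between the groups. Control replicate 3 differed most from the other controls, at a chi-square of 3.96 and 5.12 averaged over genes. The labels name testes and the series' design text names adrenal glands. Testis genes were present in the controls, with means of 99.0 FPKM for Insl3 of Leydig cells, 66.1 FPKM for Amh of Sertoli cells and 54.8 FPKM for Dazl of germ cells. Their means in knockout libraries were 33.3, 1.03 and 22.1 FPKM in the same order. Not all Sertoli cell markers fell with Amh, and 4 of the 16 tested were higher. Lats1 had 12.9, 12.7 and 12.4 FPKM in knockout libraries, against 16.3, 15.3 and 15.4 FPKM in controls (limma adjusted p = 0.000474). Lats2 had 17.8, 18.2 and 18.1 FPKM in the libraries labelled knockout, against 15.4, 14.5 and 17.0 FPKM in controls (limma adjusted p = 0.0126), which goes against the label. Reads from all exons and all testis cells enter these levels, and the flanked exons are not named, so neither gene checks the deletion, and every direction below is drawn from the labels. The labels do not say that each library is a separate animal, so a p-value here compares the groups with a spread that may be technical.

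Msln and Scel were over 20-fold higher in knockout than in control libraries, Upk1b and Upk3b were several-fold higher, Lrrn4 and Muc16 were higher by less, and Epcam was lower. Over the 7 genes the summed level was 199.5, 214 and 215 FPKM in knockout libraries and 43.4, 46.5 and 44.4 FPKM in controls. Msln made up 45.4% to 49.0% of that sum in knockout libraries and 5.54% to 11.7% in controls, where Epcam was the highest of the 7 in each library. All 7 passed the filter of a mean of at least 1 FPKM. In the limma model over 13778 genes, 6 of the 7 were past an adjusted p of 0.05 as higher in knockout, a state that 35.2% of all genes tested shared, and 1 was past it as lower, which 33.7% shared. The libraries of the groups did not overlap for any of the 7. That was so, with knockout higher, for 37.9% of all genes tested, and with knockout lower for 36.3%. Nothing is read from these counts, since the genes were chosen on this difference. In whole organs, fewer cells of a type and less RNA per cell cannot be told apart.

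**Figure D1:**
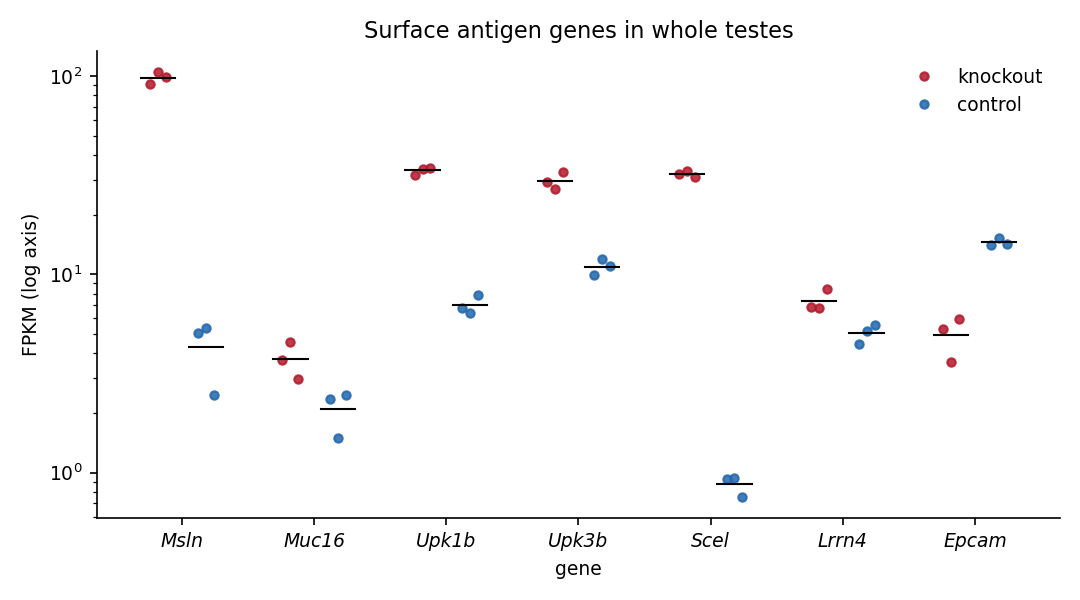
FPKM (log axis) of the 7 genes in each of 3 knockout libraries (red) and 3 control libraries (blue), with short black lines at the group means. Knockout points lie above control points for 6 genes and below them for Epcam (4.94 against 14.5 FPKM). The ratio of means was largest for Scel (32.1 against 0.876 FPKM) and smallest of the 6 for Lrrn4 (7.38 against 5.06 FPKM).

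Mesothelin and its partner mucin differed in size of change. Msln (chromosome 17, 25748614 to 25754327, GRCm38, minus strand), the gene of mesothelin, had 90.6, 105 and 99.2 FPKM in knockout libraries, from 2361, 2448 and 2377 reads, against 5.08, 5.35 and 2.46 FPKM in controls, from 102, 154 and 63 reads. Every knockout library lay far above every control, and control replicate 3 was the lowest of all. The means were 98.2 ± 7.15 FPKM in knockout and 4.30 ± 1.60 FPKM in control libraries (SD, n = 3 each), 22.9-fold apart. The difference on the log2(FPKM + 1) scale was 4.28 (SE 0.20), and 3.99 without control replicate 3. The coefficient of variation of Msln among controls was 37.1%, where the median over all genes tested was 6.42%, while among knockout libraries it was 7.28%, where that median was 4.74%.

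Muc16 (chromosome 9, 18495455 to 18512885, minus strand), the gene of mucin 16, had 3.69, 4.55 and 2.98 FPKM in knockout libraries, against 2.34, 1.49 and 2.47 FPKM in controls. The lowest knockout library lay just above the highest control. The means were 3.74 ± 0.784 FPKM in knockout and 2.10 ± 0.534 FPKM in control libraries, 1.78-fold apart, with a difference of 0.61 (SE 0.16) on the log2(FPKM + 1) scale. These levels rest on 47, 52 and 35 reads in knockout and 23, 21 and 31 reads in control libraries. The deposited model covers 9.72% of the span that RefSeq gives the gene and lies at its 3' end, so the level is that of this end only.

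Both uroplakin genes were higher in knockout libraries. Upk1b (chromosome 16, 38773184 to 38800203, minus strand) encodes a tetraspanin, a protein that crosses the membrane several times and pairs with single-pass uroplakins. It had 31.8, 34.0 and 34.4 FPKM in knockout libraries, against 6.73, 6.39 and 7.89 FPKM in controls. The means of 33.4 ± 1.41 FPKM in knockout and 7.00 ± 0.787 FPKM in control libraries were 4.77-fold apart (log2 difference 2.11, SE 0.07). Upk3b (chromosome 5, 136038496 to 136045303, plus strand), which encodes a single-pass uroplakin and is a usual mesothelial marker, had 29.1, 27.1 and 32.7 FPKM in knockout libraries, against 9.88, 11.9 and 11.0 FPKM in controls. Its means of 29.6 ± 2.85 FPKM in knockout and 10.9 ± 1.02 FPKM in control libraries were 2.71-fold apart (log2 difference 1.36, SE 0.08). The ratio of the levels of Upk3b to Upk1b was 0.797 to 0.951 in knockout libraries and 1.39 to 1.87 in controls, so Upk1b was the higher of the pair in each knockout library and Upk3b in each control.

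Scel (chromosome 14, 103513341 to 103613346, plus strand), the gene of sciellin, had 32.2, 33.1 and 31.0 FPKM in knockout libraries, from 1210, 1117 and 1073 reads, against 0.932, 0.938 and 0.758 FPKM in controls, from 27, 39 and 28 reads. It was the lowest of the 7 genes in controls and stood level with the uroplakin genes in knockout libraries. The means of 32.1 ± 1.06 FPKM in knockout and 0.876 ± 0.102 FPKM in control libraries were 36.6-fold apart. Because the control level is near the added 1 FPKM, the log2 difference of 4.14 (SE 0.06) understates this and was 5.05 with 0.1 FPKM added. Lrrn4 (chromosome 2, 132868305 to 132880891, minus strand), a mesothelial gene of a leucine-rich repeat protein, had 6.86, 6.80 and 8.48 FPKM in knockout libraries, against 4.45, 5.18 and 5.54 FPKM in controls. This was the smallest ratio of the 7, 1.46-fold between means of 7.38 ± 0.952 FPKM in knockout and 5.06 ± 0.552 FPKM in control libraries (log2 difference 0.47, SE 0.10).

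Epcam (chromosome 17, 87635979 to 87651106, plus strand) went the other way, with 5.29, 3.59 and 5.92 FPKM in knockout libraries, from 133, 81 and 137 reads, against 14.0, 15.3 and 14.3 FPKM in controls, from 271, 424 and 353 reads. Knockout replicate 2 was lowest, and the coefficient of variation was 24.4% in knockout and 4.55% in control libraries. The means were 4.94 ± 1.20 FPKM in knockout and 14.5 ± 0.660 FPKM in control libraries, 2.94-fold less in knockout (log2 difference -1.41, SE 0.13, and -1.23 without knockout replicate 2). The level of Msln was 17.1, 29.2 and 16.7 times that of Epcam in knockout libraries and 0.363, 0.350 and 0.172 times that of Epcam in controls.

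The order of mean levels differed between the groups. In knockout libraries it ran Msln, Upk1b, Scel, Upk3b, Lrrn4, Epcam and Muc16. There Upk1b overlapped Scel, Scel overlapped Upk3b and Epcam overlapped Muc16 between libraries, while the steps from Msln to Upk1b (2.94-fold), Upk3b to Lrrn4 (4.02-fold) and Lrrn4 to Epcam (1.49-fold) lay beyond the spread. In controls it ran Epcam, Upk3b, Upk1b, Lrrn4, Msln, Muc16 and Scel, with overlap only between Lrrn4 and Msln and between Msln and Muc16 among neighbours.

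Promoters are shown since letters of factors that act with YAP and TAZ can be looked for there. RefSeq's table (GRCm38.p6) matched 5 of the 7 genes, Upk3b, Lrrn4, Scel, Epcam and Muc16 but not Msln and Upk1b, with windows of 250 bases before to 50 after the start. The windows of the first 4, whose start lies near the deposited gene model, are printed. For Lrrn4 the deposited model covers 46.1% of the span that RefSeq gives the gene. That span reaches to base 132894010, upstream of the printed window, so the start used need not be the only one. Capitals mark GGAATG, the core recognised by TEAD factors, the DNA-binding partners of YAP and TAZ, on either strand, or TGANTCA, the AP-1 element, which reads alike on both strands. The motifs do not overlap each other in these windows. Upk3b (chr5:136038246-136038545, plus strand), Lrrn4 (chr2:132880813-132881112, minus strand), Scel (chr14:103513091-103513390, plus strand) and Epcam (chr17:87635729-87636028, plus strand) read, 5' to 3' in the direction of the gene:
Upk3b: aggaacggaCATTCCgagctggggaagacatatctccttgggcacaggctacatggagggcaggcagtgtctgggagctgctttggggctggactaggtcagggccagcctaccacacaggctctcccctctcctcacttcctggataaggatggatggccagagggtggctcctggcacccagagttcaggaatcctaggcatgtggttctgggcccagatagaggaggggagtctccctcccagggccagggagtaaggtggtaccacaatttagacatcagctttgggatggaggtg
Lrrn4: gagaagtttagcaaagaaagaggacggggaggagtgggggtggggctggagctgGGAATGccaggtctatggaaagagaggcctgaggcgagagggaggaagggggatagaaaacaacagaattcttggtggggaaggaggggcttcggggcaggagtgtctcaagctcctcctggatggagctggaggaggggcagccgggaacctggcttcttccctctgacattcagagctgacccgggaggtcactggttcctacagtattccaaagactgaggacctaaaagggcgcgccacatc
Scel: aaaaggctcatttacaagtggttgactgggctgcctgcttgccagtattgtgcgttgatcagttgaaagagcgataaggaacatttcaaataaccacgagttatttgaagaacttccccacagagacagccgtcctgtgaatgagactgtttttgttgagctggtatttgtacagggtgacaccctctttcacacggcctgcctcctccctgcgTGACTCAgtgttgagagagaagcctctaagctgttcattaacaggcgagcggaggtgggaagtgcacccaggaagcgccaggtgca
Epcam: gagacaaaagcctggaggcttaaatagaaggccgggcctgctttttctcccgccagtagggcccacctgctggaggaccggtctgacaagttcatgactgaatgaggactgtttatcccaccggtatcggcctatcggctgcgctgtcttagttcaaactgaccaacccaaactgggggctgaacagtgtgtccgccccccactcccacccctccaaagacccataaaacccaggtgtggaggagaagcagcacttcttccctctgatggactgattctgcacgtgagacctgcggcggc

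In Upk3b the TEAD core stood on the opposite strand, with its first base 241 bases before the start. Lrrn4 held it on the gene's strand at 196 bases before the start. Scel held no TEAD core but an AP-1 element, 36 bases before the start. Neither motif was in the windows of Epcam and Muc16, and the Muc16 window lies far upstream of the deposited model. Of 32851 promoter windows in the table, 14.7% held GGAATG and 7.81% held TGANTCA, so a match in single windows is a description of these letters and no more.

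Relatives of the 7 genes moved in both directions. Of 12 listed relatives 7 had a row and 6 were tested, of which 2 rose, 3 fell and 1 did not pass, where 68.9% of all genes tested passed in either direction.

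Upk1a, the other tetraspanin uroplakin, had 0.310, 0.277 and 0.405 FPKM in knockout libraries, against 1.85, 1.74 and 1.96 FPKM in controls, and fell by 1.10 (log2 difference, SE 0.10, with an adjusted p of 1.66e-05 from limma), opposite to Upk1b. With 0.1 FPKM added in place of 1 FPKM its difference was -2.19, and without any 1 of the control replicates it was below the filter and was not tested, which left 2 relatives lower. Otoa, the gene of otoancorin, which resembles mesothelin, had 0.0947, 0.0211 and 0.0206 FPKM in knockout libraries, against 0.910, 0.874 and 1.25 FPKM in controls. It was below the filter and was not tested, and its knockout values rest on 10, 2 and 2 reads. Among the other LRRN genes, Lrrn2 rose 1.69-fold to 7.08 ± 1.12 FPKM in knockout libraries (limma adjusted p = 0.00111). Lrrn1 had 2.88 FPKM in knockout and 6.57 FPKM in control libraries, and Lrrn3 had 8.01 FPKM in knockout and 15.1 FPKM in control libraries, both of which fell (limma adjusted p = 1.94e-05 and 0.000389). Lrrn4cl, at 1.66 FPKM in knockout and 1.29 FPKM in control libraries, did not pass (limma adjusted p = 0.162). Zfp185, whose LIM domain resembles that of sciellin, rose 1.23-fold (limma adjusted p = 0.000642).

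**Figure D2:**
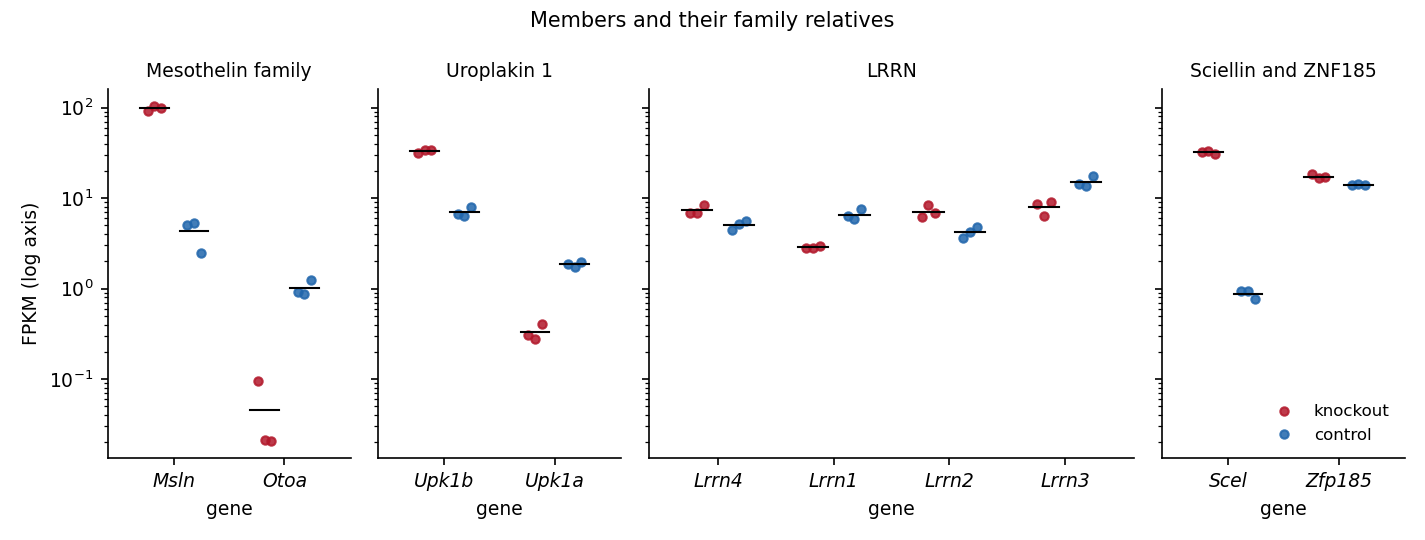
FPKM (log axis) of Msln, Upk1b, Lrrn4 and Scel, each first in its panel, beside family relatives with a row, in 3 knockout libraries (red) and 3 control libraries (blue), with lines at the means. Upk1a lies lower in knockout (0.331 FPKM) than in control libraries (1.85 FPKM) while Upk1b beside it lies higher.

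Other mesothelial genes were examined to check the label, since markers of a cell layer would be present together. Of 17 listed, 16 had a row and 15 were tested, with 10 higher, 4 lower and 1 not past (median log2 difference 0.68, against 0.01 over all genes tested). Over all genes tested, 35.2% were higher and 33.7% lower, the shares to set beside this list and those below. Ezr, the gene of ezrin, which ties surface proteins to actin, had 97.1, 100.7 and 101 FPKM in knockout libraries, against 19.7, 20.8 and 21.1 FPKM in controls (4.85-fold, limma adjusted p = 5.49e-09). Pdpn, the gene of podoplanin, a mucin-type surface protein, rose 3.71-fold to 83.4 ± 1.30 FPKM in knockout libraries. Rspo1, a secreted activator of WNT signalling made by the coelomic epithelium, rose 4.21-fold to 31.0 ± 0.509 FPKM. Thbd, the gene of thrombomodulin, had 26.9, 27.2 and 29.8 FPKM in knockout libraries, against 51.6, 49.5 and 43.1 FPKM in controls, and fell (limma adjusted p = 1.91e-05). Igfbp6 and Nkain4 fell 1.52-fold and 1.38-fold.

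Defining members of that list, chosen here after their values were seen, did not all go one way. The keratin genes Krt19, Krt18 and Krt8 rose 4.22-fold, 2.90-fold and 1.72-fold and Gpm6a, a membrane glycoprotein gene, rose 4.07-fold. Bnc1, a transcription factor gene of mesothelium, had 7.27, 6.65 and 8.63 FPKM in knockout libraries, against 9.15, 9.44 and 8.42 FPKM in controls, and its fall (limma adjusted p = 0.0396) was lost without control replicate 1 or 2 or knockout replicate 1 or 2 (adjusted p 0.1 to 0.13). Krt7 did not pass, at 1.94 FPKM in knockout and 2.12 FPKM in control libraries, and Calb2, the gene of the mesothelial marker calretinin, was too low to test, at 0.185 to 0.341 FPKM in knockout and 0.693 to 1.18 FPKM in control libraries. Wt1, which Sertoli cells also express, rose 1.34-fold. Because the list went both ways, the 7 genes are called here by their names and not as a measure of a cell layer.

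Simple epithelial genes leaned the other way, as Epcam did. Of 23 listed, 21 had a row and 16 were tested, with 4 higher, 10 lower and 2 not past (median log2 difference -0.81). Of all genes tested, 35.2% were higher and 33.7% lower. Esrp1, an epithelial splicing factor gene, had 1.42, 0.632 and 1.04 FPKM in knockout libraries, against 9.04, 9.76 and 7.29 FPKM in controls (8.46-fold less, limma adjusted p = 2.96e-06). Its paralogue Esrp2 rose 5.32-fold, with 5.74, 4.99 and 4.82 FPKM in knockout libraries, against 0.825, 1.03 and 1.07 FPKM in controls. Rab25, a vesicle traffic gene of epithelia, fell to 0.222 ± 0.106 FPKM in knockout libraries, against 3.44 ± 0.471 FPKM in controls. Spint2, the gene of a surface protease inhibitor, fell 1.87-fold, and Cdh3, the gene of P-cadherin, and Cldn6, a claudin gene, rose 1.97-fold and 2.65-fold. Cdh1, the gene of E-cadherin, and Grhl2, an epithelial transcription factor gene, both named after their values were seen, had 0.989 and 1.08 FPKM in knockout libraries and 2.73 and 4.04 FPKM in control libraries. Cdh1 is also listed among the germ cell markers below and counts in both lists. Among the 10 lower genes, Cdh1, Esrp1, Grhl2, Rab25 and Spint2 were lowest in knockout replicate 2, as the summed germ cell markers were. Grhl1, Elf3, Ap1m2 and Crb3 were lowest in knockout replicate 1 and Spint1 in knockout replicate 3. The part of germ cells in these falls was not tested.

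Partners of EPCAM and the proteases that cut it went both ways, with more higher than lower. Of 13 listed 12 were tested, with 8 higher, 2 lower and 2 not past (median log2 difference 0.29). Higher were 35.2% of all genes tested and lower 33.7%. Adam10 and Bace1, both genes of proteases, rose 1.70-fold and 1.58-fold, to 67.6 ± 1.31 and 21.8 ± 0.906 FPKM in knockout libraries, and Fhl2, which encodes a LIM domain protein that binds the cut tail of EPCAM, rose 1.53-fold. Bace2 fell 3.63-fold to 2.80 ± 0.224 FPKM and Cldn1, a claudin gene, fell 1.88-fold to 11.4 ± 0.192 FPKM. Cldn7, the claudin that binds EPCAM directly, was below the filter, at 0.232 to 0.833 FPKM in knockout and 0.933 to 1.51 FPKM in control libraries.

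Desmosome and cornified envelope genes, listed for sciellin, included 8 higher, 2 lower and 3 not past of 13 tested, out of 24 listed and 17 with a row (median log2 difference 0.79). Over all genes tested, 35.2% were higher and 33.7% lower. The 8 higher were the desmosome genes Dsp, Dsc2, Dsg2, Pkp2, Jup and Perp, with Evpl and Tgm2. Ivl, Flg, Tgm3 and Sprr1b had no row, Lor, Tgm1, Cnfn and Cdsn were below the filter, and Ppl and Sprr1a did not pass. Perp, the gene of a desmosomal membrane protein, had 53.6, 60.5 and 54.9 FPKM in knockout libraries, against 5.60, 6.03 and 5.13 FPKM in controls (limma adjusted p = 7.99e-09). Dsg2 and Pkp2, both desmosome genes, rose 3.98-fold and 2.32-fold. Pkp3 fell 6.48-fold, to 0.269 ± 0.0872 FPKM in knockout libraries, and the keratin gene Krt10 fell 1.47-fold. Without any 1 of the control replicates Pkp3 was below the filter and was not tested.

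Tetraspanins, the family of Upk1b, numbered 13 higher, 7 lower and 5 not past among 25 tested of 26 listed (median log2 difference 0.14). The shares over all genes tested were 35.2% higher and 33.7% lower. Cd53, a leukocyte tetraspanin gene, rose 12.0-fold to 16.3 ± 1.39 FPKM in knockout libraries, in which the summed level of 14 macrophage markers was 600 to 696 FPKM, against 79.8 to 90.6 FPKM in controls. The part of macrophages in that rise was not tested. Tspan12 and Cd151 rose 2.48-fold and 1.72-fold, and Tspan8, Tspan15 and Tspan18 fell 5.91-fold, 1.64-fold and 1.56-fold. Of 15 listed mucins and sialomucins, relatives in kind of Muc16, 6 had a row, and 2 were higher, 2 lower and 2 not past. Passing in either direction was shared by 68.9% of all genes tested. Emcn, which vessels express, and Podxl rose 2.62-fold and 1.64-fold. Muc3 had 0.419, 0 and 0.137 FPKM in knockout libraries, against 4.29, 3.26 and 5.37 FPKM in controls, and Cd164 fell 1.11-fold (limma adjusted p = 0.0258), a call lost without any 1 of the knockout replicates (adjusted p 0.0644 to 0.102).

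**Figure D3:**
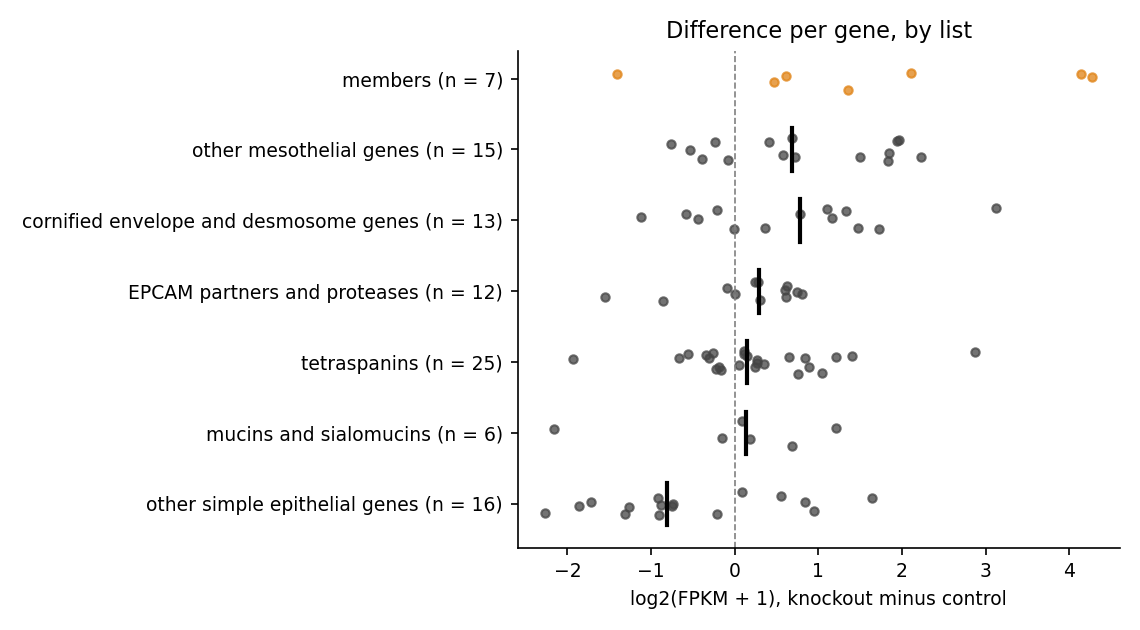
Difference of each tested gene between knockout and control libraries on the log2(FPKM + 1) scale, by list, with the 7 members in orange, other genes in grey and black bars at the medians of the other lists. The median was 0.68 for other mesothelial genes and -0.81 for other simple epithelial genes, and in the members and in each of the 6 lists plotted, genes lie on both sides of 0.

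Cell type markers moved in the same libraries, and their part in the levels of the 7 genes was not tested. Beside the counts here, 35.2% of all genes tested were higher and 33.7% lower. Germ cell markers, of which 12 of 15 tested fell and 1 rose, summed to 128, 73.0 and 134 FPKM in knockout libraries and to 304, 285 and 346 FPKM in controls. Knockout replicate 2 was lowest in this sum, as it was for Epcam. Sertoli cell markers summed to 267 to 302 FPKM in knockout and 506 to 557 FPKM in control libraries (4 higher and 12 lower of 16). The 4 higher were Sox9, Dmrt1, Wt1 and Cldn11, while Amh was among the 12 lower. Mean levels of these 4 were 22.8, 35.8, 29.6 and 29.9 FPKM in knockout libraries, against 19.3, 25.5, 22.0 and 9.71 FPKM in controls. Sox9 lost its call without control replicate 1 or 3 or knockout replicate 1. Leydig cell markers summed to 342 to 391 FPKM in knockout and 822 to 900 FPKM in control libraries (9 of 9 lower). All 14 macrophage markers rose. Fibroblast and tunica markers had 5 of 9 lower and none higher, with sums of 471 to 493 FPKM in knockout and 570 to 655 FPKM in control libraries. Whole-organ RNA does not separate the tunica, beneath the mesothelium, from other fibroblasts of the testis. Endothelial markers numbered 4 higher and 1 lower of 10, with 7 higher without knockout replicate 1 and 2 lower without control replicate 3. Of 16 markers of excurrent ducts and urothelium, which also carry uroplakins or EPCAM, 4 had a row, with a summed level of 6.22 to 7.56 FPKM in knockout and 3.27 to 4.61 FPKM in control libraries (2 higher and 1 lower of 3 tested). Foxj1, a gene of ciliated cells, and the keratin gene Krt20 rose to 4.03 and 2.13 FPKM in knockout libraries, against 0.356 and 0.616 FPKM in controls. Pax8, a transcription factor gene, fell to 0.558 FPKM in knockout libraries, against 1.53 FPKM in controls, and was below the filter without control replicate 1 or 3. Adam7, named after its values were seen, had a mean below the filter, at 0.0937 FPKM in knockout and 1.49 FPKM in control libraries. None of the marker genes with a row was at 0 in all libraries of a group.

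**Figure D4:**
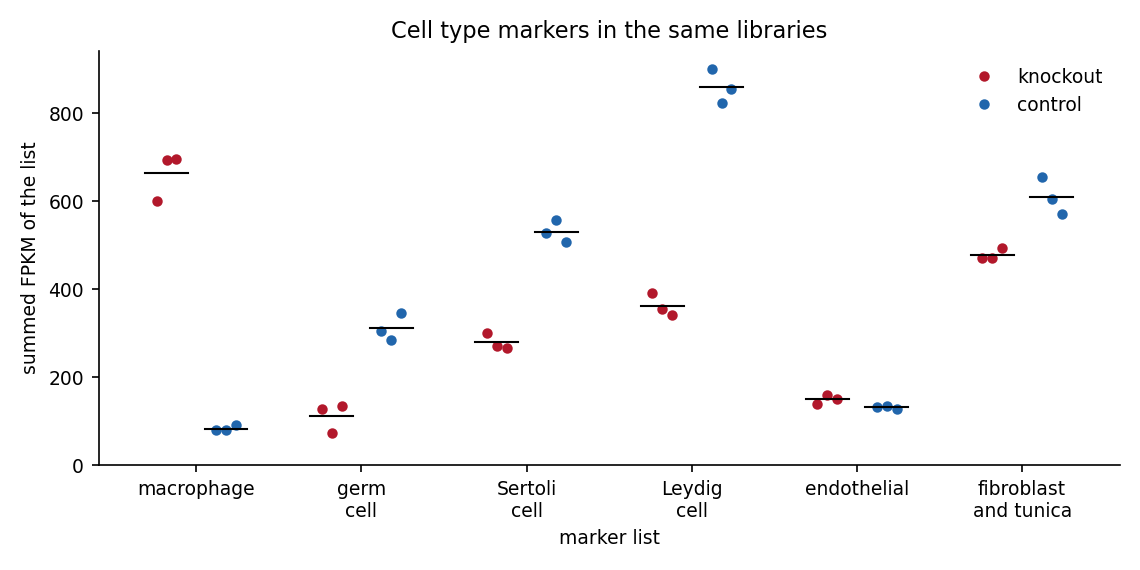
Summed FPKM of each cell type marker list in 3 knockout libraries (red) and 3 control libraries (blue), with lines at the means. Macrophage markers are higher in knockout libraries (600 to 696 against 79.8 to 90.6 FPKM), and germ cell, Sertoli cell and Leydig cell markers are lower.

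Genes whose levels followed Msln and Epcam most closely were found by the Euclidean distance between log2(FPKM + 1) values over the 6 libraries, among the genes that passed the filter. Nearest to Msln were Prss23, a serine protease gene (distance 0.791), the early response gene Ier3 (0.986) and the complement genes C1qb (1.16) and C1qa. Prss23 had 83.9, 93.7 and 93.0 FPKM in knockout libraries, against 4.57, 4.12 and 4.56 FPKM in controls. Nearest to Epcam were Zscan18 (0.310), Svip (0.336), the synaptotagmin gene Syt13 (0.391) and the calpain gene Capn6 (0.416). Zscan18 had 5.19, 4.15 and 5.06 FPKM in knockout libraries, against 14.1, 13.6 and 15.1 FPKM in controls. The points share their libraries and their groups, so nearness says only that the levels were alike.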

How the data were processed

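RNA from whole testes was measured in 3 knockout and 3 control libraries. Per the labels' protocols, testes kept frozen gave total RNA through an RNeasy kit, and STAR aligned the reads, and the submitters' processing notes name GRCm38 and DESeq2 1.22.2. How reads were counted, with which annotation, strand setting and rule for multiple hits, is not given in the sources used here. FPKM of each library, computed by the authors, were deposited for 14998 genes that each reached 1 FPKM in some library. Per the file headers, the table's other columns are −log10 p-values, p-values, FDR, log2 fold changes and log2 group means from the authors' own tests, and these were not used here.

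Library totals and whole reads were recovered from the FPKM and exon lengths of GENCODE M21, with whole reads for 99.99% of genes (tolerance 0.003 reads plus a relative 1e-06). Each library counts as 1 sample. No pair of replicates was alike within sampling noise (chi-square averaged over genes 1.73 to 5.12), which does not show that the libraries are separate animals. Tests used limma 3.58.1 in R 4.3.3 on log2(FPKM + 1) with an intensity trend, over 13778 genes whose mean reached 1 FPKM, two-sided, with Benjamini-Hochberg adjustment over all of them and a threshold of 0.05. The model was also run on simulated data in which far fewer genes were changed than were called here, so that run does not check it for these libraries. Fold changes are ratios of mean FPKM. Tables and figures used Python 3.11.15, pandas 2.3.3 and matplotlib 3.10.9. The members and lists were chosen with earlier results of these data known. Named genes are all members, Lats1 and Lats2, and the listed relatives with a row. In each other list up to 3 genes with the smallest p in each direction were named. The lists of macrophage, germ cell, Sertoli cell, Leydig cell, endothelial, and fibroblast and tunica markers were instead given as counts or sums. Some genes, among them Insl3, Dazl and Cldn7, were named outside this rule. Adgre1 was matched by its Ensembl ID under the older symbol Emr1. A listed gene is not reported here and is left out of the lists' counts. Alternatives were another pseudocount, a block of replicate numbers, other filters, the removal of each library, median-ratio scaling, limma-voom on recovered reads and a stricter threshold.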

Additional observations from a re-analysis of the deposited data

How the results depend on the processing

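Over the alternatives, 6 of the 7 members kept a positive log2 difference wherever they were tested, and Epcam kept a negative one, from -1.58 with limma-voom on recovered reads to -1.23 without knockout replicate 2. Msln ranged from 3.99 to 4.59 and Muc16, at 21 to 52 reads a library, from 0.46 to 0.86. Scel was 5.05 with a pseudocount of 0.1 and 5.18 with limma-voom, and Upk1b 2.24 and 2.25, against 4.14 and 2.11. With a filter at a mean of 10 FPKM, 2954 genes were higher and 1826 lower, against 4850 and 4642, and 10 genes of the lists were lower, because fewer genes were tested. At that filter only Msln, Upk1b, Upk3b and Scel among the members were left. The labels do not say whether libraries with the same replicate number are paired. Deviations of same-numbered libraries correlated at -0.01, -0.02 and 0.10, and those of unlike numbers at -0.16 to 0.14. With 3 libraries a group, these values do not decide whether a pairing exists. With the replicate number as a block, 4762 genes were higher and 4597 lower, Bnc1 (adjusted p = 0.0565) and Cd164 (adjusted p = 0.0698) lost their calls, and not every library correlated best with its own number. Whole-organ RNA does not say which cells carry these transcripts, and the lowest values rest on few reads.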
